A study of Homo sapiens with 18 samples.

Results

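Replication-dependent histone genes encode the bulk of the H1, H2A, H2B, H3 and H4 proteins of a dividing cell. They were taken by name: every gene whose current symbol is H1-1 to H1-6, or is H2AC, H2BC, H3C or H4C followed by a number, with the older HIST names counted as the same gene. Of 84 such names in the gene tables, 71 had a row in the count files, out of 24401 genes in all. The other 13 names (11 pseudogenes, 1 antisense RNA and 1 gene on chromosome 21) had no row. By family the 71 members were 6 H1, 18 H2A, 19 H2B, 13 H3 and 15 H4 genes, of which 56 lie on chromosome 6, 14 on chromosome 1 and 1 on chromosome 12. Of these, 52 passed the filter on low counts and were tested, 13 had counts but were too low to test, and 6 (H2AC2P, H3C8, H3C11, H4C6, H4C13 and H4C16) had no count in any library.

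H2A and H2B pair as dimers, H3 and H4 form the tetramer at the centre of the nucleosome, and H1 binds the linker DNA between nucleosomes. These genes lie in clusters, have no or few introns and are transcribed mainly in S phase, when new DNA has to be packed. Their main mRNAs end in a conserved stem-loop bound by the stem-loop binding protein SLBP instead of a poly(A) tail, but some of the genes also give longer, polyadenylated transcripts, for example in differentiating or resting cells. The libraries were made from RNA bound to oligo-dT beads, so the values describe histone RNA recovered on such beads and not all histone mRNA.

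The RNA came from K562, a human erythroleukaemia line with embryonic and fetal globin expression, in 6 groups of 3 libraries. The groups KRAB_CR4 and KRAB_CR10 were transduced with lentivirus for dCas9-KRAB, a Cas9 without nuclease activity joined to the KRAB repressor domain, and a guide RNA (gRNA), CR4 or CR10, against HS2, an enhancer of the beta-globin genes. The groups dCas9_CR4 and dCas9_CR10 carried dCas9 without KRAB and the same gRNAs, and KRAB_no_gRNA carried dCas9-KRAB alone. All 5 lentiviral groups were transduced with polybrene at 4 µg/ml, carried the puromycin resistance gene and were put on puromycin at 1 µg/ml from about 96 hours after transduction. The group no_lentivirus was the untransduced line, and whether it was given polybrene is not said. Virus, polybrene and selection therefore cannot be told apart in comparisons with it. The series text gives the transductions as triplicate and says nothing of separate cultures for the untransduced libraries, so p-values measure the spread between these libraries, which may be technical. In bulk RNA, fewer cells in a phase or state and less RNA per cell cannot be told apart.

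The 18 libraries held 22805964 to 34032962 counts. HBE1, the embryonic globin gene under HS2, was at 61.6 ± 6.2 CPM in KRAB_CR4 and 85.0 ± 11 in KRAB_CR10 (SD, n = 3) and between 359 and 604 in the group means of the other 4 groups. CPM (counts scaled to the library's total) are given after TMM scaling, which corrects for differences in library composition. Ribosomal RNA has no poly(A) tail. Its share of the counts was 0.508% to 1.5% in 16 libraries, 4.02% in the second library of KRAB_CR4 and 3.52% in the first of KRAB_CR10. Lentiviral libraries numbered 3 stood apart from those numbered 1 and 2. The erythroid marker GATA1 (181 to 292 CPM) was present in every library, the platelet gene GP9 and the B cell gene MS4A1 were at 0 in all of them, and the leukocyte gene PTPRC ranged from 64.6 to 344 CPM.

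The signal at the mRNA end that sets these genes apart was looked for first. A core of the stem-loop, GG, any 2 bases, CTTTT, any base, AG, any 2 bases and CC in a row, was searched on the sense strand of the GENCODE 29 transcripts. It was in transcripts of 31 of the 71 members and of 0.136% of all 58721 genes. The forms below carry the core in capitals with up to 5 flanking bases on each side in lower case. They are shown because the main mRNAs of these genes end at this stem-loop without a poly(A) tail, and each stands for a form shared by several members. The letters alone do not tell such mRNAs from longer polyadenylated transcripts, which can hold them too.
H2BC21: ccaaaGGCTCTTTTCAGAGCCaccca
H2BC5: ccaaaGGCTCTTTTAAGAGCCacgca
H2AC11: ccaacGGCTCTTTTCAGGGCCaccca
H4C15: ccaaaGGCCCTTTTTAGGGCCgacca
H4C8: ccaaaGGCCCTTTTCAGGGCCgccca
The core of H2BC21 was shared by 17 members of the H2A, H2B and H3 families, H2AC6, H2AC18, H2AC19 and H3C10 among them. The core of H2BC5 was in 4 members, that of H2AC11 in 2, that of H4C15 in 3 H4 genes and that of H4C8 in 5 H4 genes. In 16 of the 31 members at least 1 transcript model ran on for more than 100 bases past the stem-loop letters and held AATAAA, the usual poly(A) signal, in that extension. The GENCODE 29 transcripts of H2BC12 and H1-2, which gave most of the reads, hold the coding part only. Their lack of the letters therefore says nothing of the ends of their mRNAs. The same holds for many other members without the letters, H3C4 (411 bases), H2BC3 (381) and H4C1 (312) among them. The 31 members are therefore a lower limit.

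The start sites carry letters that differ by family. In the 64 members found in the RefSeq table of promoters (GRCh38.p14, 250 bases before to 50 after the start, both strands searched), ATTTGCAT, the octamer bound by POU2F1, was in 14 of 18 H2B and 11 of 16 H2A genes, 1 of 11 H3 genes and no H1 or H4 gene, against 1.77% of all 35116 promoters. AAACACA was in 6 of 6 H1 promoters (5.64% of all promoters), and GGTCCG, part of an element of H4 genes, in 12 of 13 H4 promoters (11.3%). CCAAT was in every H1, H2A, H2B and H3 promoter and in 3 of 13 H4 promoters (34.6%), and TATAAA in 3 of 6 H1, 12 of 16 H2A, 12 of 18 H2B, 8 of 11 H3 and 7 of 13 H4 promoters (11.5%). The 150 bases before the start of the 2 members with the most reads and of H2BC11, the member with the smallest adjusted p between lentiviral and untransduced libraries, are shown with these letters or their complements in capitals. They stand on the minus strand of GRCh38.p14 at chr6:27146859-27147008 for H2BC12, chr6:26056471-26056620 for H1-2 and chr6:27132796-27132945 for H2BC11.
H2BC12: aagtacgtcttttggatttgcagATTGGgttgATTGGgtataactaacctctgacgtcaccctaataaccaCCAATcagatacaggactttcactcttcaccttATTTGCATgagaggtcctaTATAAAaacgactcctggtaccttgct
H1-2: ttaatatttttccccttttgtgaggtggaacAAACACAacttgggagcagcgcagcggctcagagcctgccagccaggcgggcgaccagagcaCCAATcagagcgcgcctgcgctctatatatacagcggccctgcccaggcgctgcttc
H2BC11: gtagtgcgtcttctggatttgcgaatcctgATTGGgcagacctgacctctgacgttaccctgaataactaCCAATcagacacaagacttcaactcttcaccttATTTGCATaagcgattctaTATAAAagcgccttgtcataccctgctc
Both H2B promoters hold CCAAT, the octamer and TATAAA in the same order at nearly the same distances. The H1 stretch holds AAACACA and CCAAT and neither the octamer nor TATAAA. A match of letters is a description and was not tested as a binding site.

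Histone RNA on the beads was made up mostly of 2 genes. The summed members took 821 to 1240 CPM per library, or 0.0819% to 0.123% of the counts. H2BC12 (HIST1H2BK), an H2B gene of the chromosome 6 cluster, gave 39.3% of the members' counts, and H1-2 (HIST1H1C), a linker histone gene, gave 28.3%. H2BC12 ranged from 308 to 492 CPM with a median of 409 over the 18 libraries, and H1-2 from 230 to 352 with a median of 291. Both were high in every library, and their ranges overlapped only between 308 and 352 CPM. The next 8 by counts were H2BC21, H2AC6, H2BC5, H2AC18, H2AC19, H3C10, H2BC11 and H3C4, with which the 10 highest members reached 88.5% of the members' counts. Of the 71 members 11 had a mean of at least 10 CPM, 29 a mean of 1 to 10 and 31 less than 1. The median of the tested members was 2.95 CPM, against 23.7 for all tested genes. Stem-loop letters were in the annotated transcripts of 6 of the 10 highest genes, and 3 of the 10 also had the extension with AATAAA. For H2BC12, H1-2 and H3C4, which lacked the letters, the GENCODE 29 transcripts hold only the coding part. Their RefSeq gene spans are longer, at 8566, 731 and 2510 bases, and were not searched for the letters. H2BC11, which also lacked the letters, has a GENCODE 29 transcript of 950 bases.

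**Figure D1:**
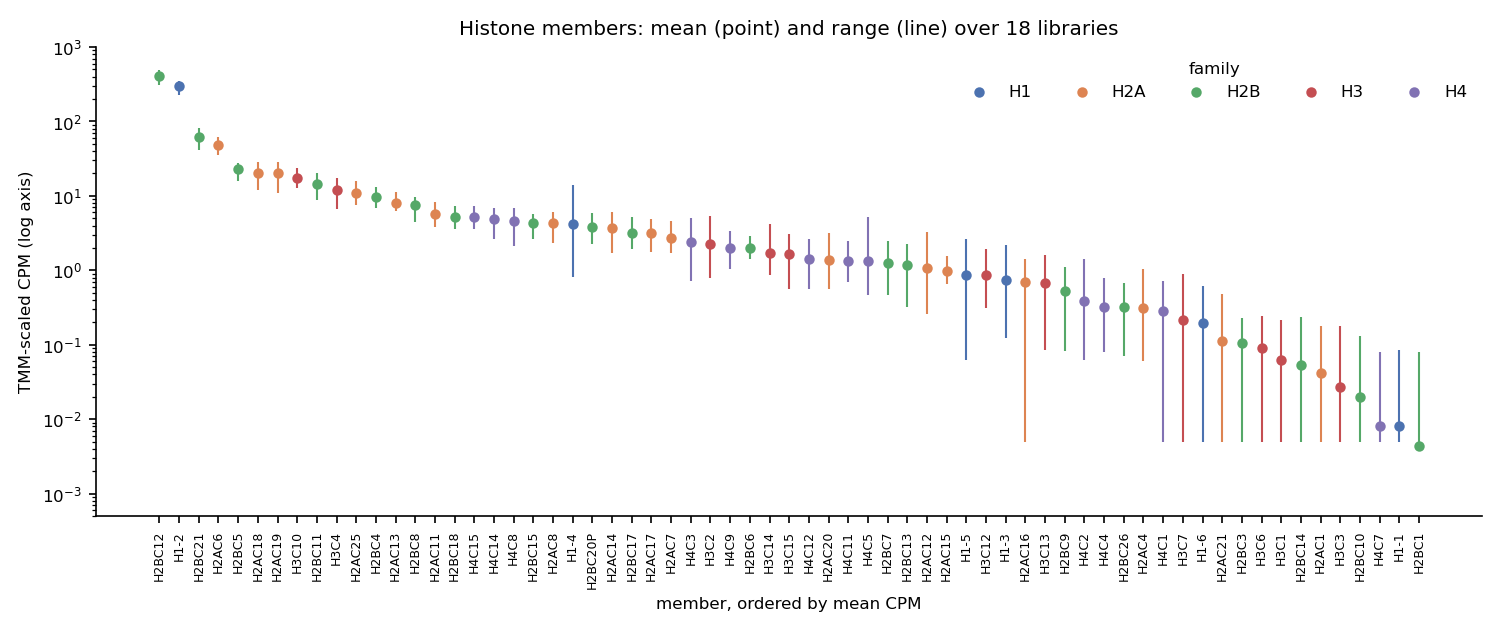
Mean TMM-scaled CPM (points, log axis) and range over 18 libraries (lines) of the 65 members with any count, ordered by mean and coloured by family; a line that ends at 0.005 CPM marks a library at 0. H2BC12 (mean 410) and H1-2 (mean 295) lie far above the rest, and the next is H2BC21 at a mean of 61.8.

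Per kilobase of coding length, the highest member of each family fell in the order H2B, H1, H2A, H3, H4. Reads can also come from bases outside the coding part, so members with long transcripts come out too high on this scale. The transcript model of H2BC21, for example, has 2194 bases, of which 381 are coding. Whether the order holds per kilobase of whole transcript was not tested. H2BC12 was at 1080 ± 120 CPM per kilobase (SD, n = 18), H1-2 at 459 ± 60.5 and H2BC21 at 162 ± 30.1. H2AC6, the highest H2A gene, was at 124 ± 19.5, H3C10, the highest H3 gene, at 42.6 ± 7.33, and H4C15, the highest H4 gene, at 16.7 ± 3.42. The intervals of 1 SD of H2BC21 and H2AC6 overlapped, as did those of H4C15 and H4C14 (15.7 ± 3.58), while the steps between the families exceeded the SD. Summed over a family, H2B members gave 52.6% of the members' counts, H1 28.8%, H2A 12.7%, H3 3.54% and H4 2.32%. Each fragment gave 2 counts. For the 6 members without a count, 3 fragments (6 counts) in all 18 libraries together would be 0.0123 CPM, which is the level a count of 0 allows for counting error.

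Some members cannot be separated from a near copy. H2AC18 and H2AC19, a duplicated pair on chromosome 1, had identical coding sequences (0 of 393 bases different), and their CPM stayed within a ratio of 0.928 to 1.13 in all 18 libraries. H3C14 and H3C15 (0 of 411 bases) and H4C14 and H4C15 (0 of 312 bases) were also identical over the coding part, with ratios from 0.573 to 2.22 and from 0.682 to 1.18. How reads that fit both copies were counted is not given in the sources used here, so the copies of a pair are counted separately below but are not independent. H2BC11 and H2BC12, by comparison, differed at 30 of 381 coding bases. Only 2 members had a pair of transcript accessions. The more abundant transcript gave 70.4% to 78.2% of the counts of H2BC5 and 71.1% to 89.3% of those of H2BC18.

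Several histone genes were higher in lentiviral than in untransduced libraries. With the edgeR quasi-likelihood test, 10 of 52 members rose in the mean of the 5 lentiviral groups against no_lentivirus and 0 fell, where 7.55% of all 14716 tested genes rose and 11.2% fell. In either direction the shares were 19.2% of members and 18.7% of all tested genes. DESeq2 gave the same 10. At an unadjusted p under 0.05 there were 18 members (33.6% of all tested genes), and 3 members had all lentiviral above all untransduced libraries (3.31% of all tested genes). The 10 were 2 H1 genes, 3 H2A genes, 3 H2B genes and 2 H3 genes, and none of the 11 tested H4 genes passed. The log2 fold change was above 0 for 45 of 52 members, with a median of 0.32 over the members and 0.01 over all tested genes. The summed members lay between 821 and 988 CPM in the untransduced libraries and between 887 and 1240 in the lentiviral ones, so these ranges overlapped.

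H2BC11 (HIST1H2BJ), an H2B gene, gave the clearest separation. It was at 9.59, 9.49 and 8.92 CPM in the untransduced libraries and at 10.5 to 20.1 (median 15.4) in the 15 lentiviral ones. All 15 lay above the highest untransduced library. The log2 fold change was 0.73 ± 0.15 (SE), edgeR adjusted p = 0.0042. H2BC4, also an H2B gene, did not overlap either, with 6.86, 6.94 and 7.27 CPM against 7.34 to 13.2 (median 10.5) and a log2 fold change of 0.55 ± 0.16 (edgeR adjusted p = 0.0283). H2BC5 was at 20.1, 16 and 16.4 CPM against 18.1 to 27.9 (median 24.4), with a log2 fold change of 0.45 ± 0.14 (edgeR adjusted p = 0.03). For H2BC5 2 of 15 lentiviral libraries lay at or below the highest untransduced one.

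Among the H2A genes, the copies H2AC18 and H2AC19 both passed. H2AC18 was at 16.8, 12 and 13.8 CPM without lentivirus and at 14.5 to 28.6 (median 20.6) with it, a log2 fold change of 0.58 ± 0.15 (edgeR adjusted p = 0.0162). H2AC19 gave 0.62 ± 0.17 (edgeR adjusted p = 0.0179), and for each of the copies 14 of 15 lentiviral libraries lay above the highest untransduced one. H2AC20, the third H2A gene, was low, at 0.789, 0.558 and 0.661 CPM against 0.951 to 3.2 (median 1.43), and did not overlap between the groups (log2 fold change 1.18 ± 0.32, edgeR adjusted p = 0.0186).

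The largest folds came from low members. H1-3, a linker histone, was at 0.303, 0.124 and 0.264 CPM without lentivirus, which is 10, 4 and 8 counts, and at 0.259 to 2.16 (median 0.768) with it. Its log2 fold change was 1.80 ± 0.51 (edgeR adjusted p = 0.0229). H1-4, another linker histone, was at 2.12, 0.806 and 2.11 CPM against 2.07 to 13.9 (median 3.92), a log2 fold change of 1.43 ± 0.43 (edgeR adjusted p = 0.0295). Only 1 lentiviral library of each overlapped the untransduced ones, and the highest value of both came from KRAB_CR10 library 1. The H3 gene H3C2 was at 1.46, 0.93 and 0.793 CPM against 1.05 to 5.45 (median 2.27), a log2 fold change of 1.20 ± 0.37 (edgeR adjusted p = 0.0321). H3C15, whose copy H3C14 did not pass (edgeR adjusted p = 0.513), was at 0.85, 0.558 and 1.06 CPM against 0.931 to 3.1 (median 1.76), a log2 fold change of 1.12 ± 0.37 (edgeR adjusted p = 0.0435).

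**Figure D2:**
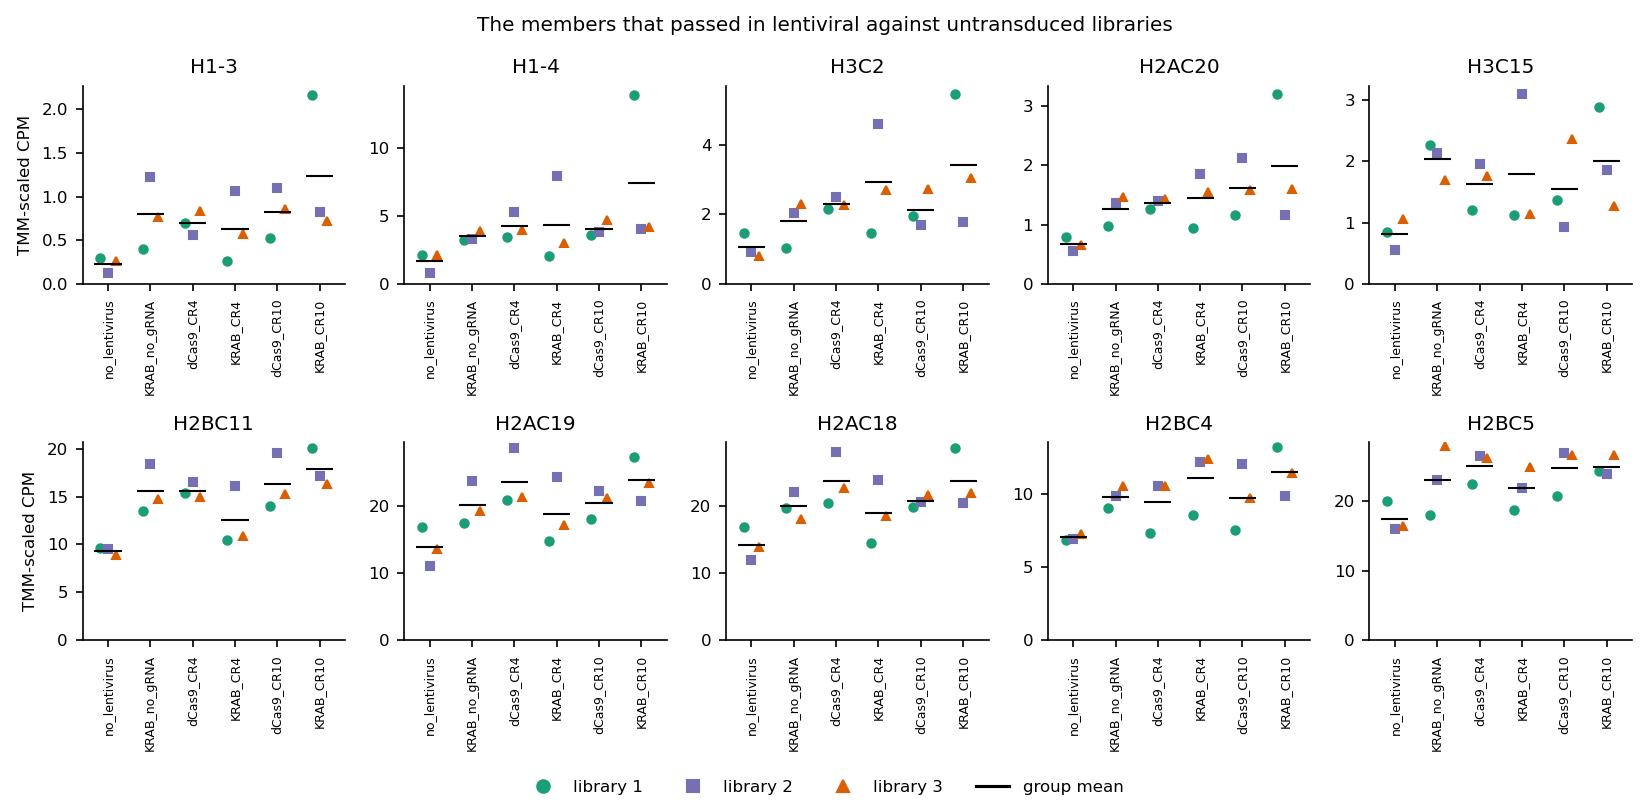
TMM-scaled CPM of the 10 members that passed between lentiviral and untransduced libraries, 1 panel per gene on its own linear axis from 0, by group, with symbols for the library number and a line at each group mean (n = 3). H2BC11, H2BC4 and H2AC20 do not overlap between no_lentivirus and the other groups, and H1-4 reaches 13.9 CPM in KRAB_CR10 library 1.

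This comparison rests on 3 untransduced libraries. Without no_lentivirus library 2 or without no_lentivirus library 3, 1 member passed, H2BC11 in each case. Without the libraries numbered 3 in every group 3 passed (H1-4, H2BC11 and H3C15). The shares of all tested genes that passed in these smaller fits were not worked out. Whether members lost more calls than other genes was therefore not tested. Ribosomal RNA also differed between the groups, at 0.508% to 0.736% of the counts in the untransduced libraries and 0.57% to 4.02% in the lentiviral ones. Without KRAB_CR4 library 2 and KRAB_CR10 library 1, the highest in ribosomal RNA, 7 of the 10 members passed, where 4.33% of all tested genes rose. H2BC4, H2BC5 and H3C15 did not pass, at log2 fold changes of 0.51, 0.45 and 0.92, close to those with all libraries for the first 2. As these libraries were chosen after the data were seen, the part of RNA without poly(A) in the result was otherwise not tested.

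The genes that control histone mRNA or DNA replication and passed all fell, at shares to be read against the 11.2% of all tested genes that fell. The 4 of 34 control genes lay near that share and the 6 of 30 S phase genes above it. Rises in the other lists are to be read against the 7.55% of all tested genes that rose. Of 34 genes that control histone mRNA, 0 rose and 4 fell: CPSF3, the endonuclease of histone mRNA ends (log2 fold change -0.53), HINFP, an activator of H4 genes (-0.42), LSM11, a subunit of the U7 particle (-0.49), and MIF4GD, which binds SLBP (-0.79). Of 24 histone chaperone genes, 3 rose (NASP 0.40, TONSL 0.51 and UBN2 0.50) and ASF1B, which hands H3 and H4 to assembly factors, fell (-0.37). Of 30 S phase genes, 0 rose and 6 fell, CDC45 (-0.43), RRM1 (-0.37), TK1 (-0.29) and PRIM1 (-0.42) among them. Of the 9 tested replication-independent histone genes, H2AX (0.71) and H1-10 (0.43) rose and none fell. Of 19 tested G2 and M phase genes, MKI67 rose (0.69) and 4 fell, with AURKB the furthest (-0.62).

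Other lists moved with the same groups, where 7.55% of all tested genes rose and 11.2% fell. Of 12 tested RNAs without poly(A), 3 rose, RN7SK (2.55), RNA18SN5 (1.63) and RNA5-8SN5 (2.18), and none fell. Of 12 erythroid genes 5 fell and none rose, and of 8 housekeeping genes 2 fell, RPLP0 (-0.38) among them, and none rose. PTPRC (-1.37) and LYZ (-0.89) of 6 tested myeloid and lymphoid genes fell, as did ITGA2B (-1.59) and ITGB3 (-0.88) of 5 tested megakaryocyte genes, and VIM rose (0.35) among 6 tested fibroblast and epithelial genes. The summed myeloid and lymphoid list was at 169 to 427 CPM in the untransduced and 91.2 to 166 in the lentiviral libraries. The part of these differences in the histone result was not tested.

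The repressor alone was compared with the untransduced line as well. Between KRAB_no_gRNA and no_lentivirus, 1 of 52 members rose, H2BC11, and none fell, where edgeR called 2.87% of all tested genes higher and 3.76% lower (6.63% in all). At an unadjusted p under 0.05 there were 9 members (26.3% of all tested genes). Its values in KRAB_no_gRNA were 13.5, 18.4 and 14.7 CPM, all above the untransduced ones, with a log2 fold change of 0.74 ± 0.18 (edgeR adjusted p = 0.029). DESeq2 called H2BC11, H1-3 and H3C15. The call for H2BC11 was lost without any 1 of the 3 KRAB_no_gRNA libraries, without no_lentivirus library 2 and without no_lentivirus library 3. In this comparison CPSF3 (-0.54) was the only control gene to fall and CDC45 (-0.39) the only S phase gene, and no chaperone, replication-independent histone, G2 and M phase gene or RNA without poly(A) passed. The erythroid genes ALAS2 and GATA1, the megakaryocyte gene ITGB3 and the leukocyte gene PTPRC fell, and VIM rose.

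Targeting HS2 was not followed by a detected change of any histone member. In the 8 comparisons of gRNA and repressor, edgeR called 0 of 52 members and so did DESeq2. This fit had no term for library number, although same-numbered lentiviral libraries deviated together. Its common coefficient of variation between libraries was 21.6%, against 10.5% with that term in the 15 lentiviral libraries. The fit with the term also called 0 members. The SE, p-values and shares given for these comparisons are from the fit without it, unless stated. Of all 14716 tested genes edgeR called 0.0204% in each of 4 comparisons (KRAB with CR4 or CR10, set against KRAB_no_gRNA or against dCas9 with that gRNA), 0.0272% in the mean KRAB effect over both gRNAs, and 0.0% in the other 3. The genes called in the first 4 were HBE1, HBG1 and HBG2, the globin genes of the locus, and no gene of the other lists passed in any of the 8. Group means of the most abundant members are given with their SD, which includes the spread between library numbers. H2BC12 had group means of 417 ± 33.1 CPM in KRAB_no_gRNA, 438 ± 61.9 in dCas9_CR4, 411 ± 23.3 in KRAB_CR4, 407 ± 65.3 in dCas9_CR10 and 422 ± 33.1 in KRAB_CR10 (SD, n = 3). H1-2 lay at 303 ± 31.9, 321 ± 38.9, 271 ± 35.4, 308 ± 48.0 and 316 ± 24.7 CPM in the same order. For both genes the intervals of 1 SD around these 5 means all overlapped. Within each library number, however, H1-2 was lowest in KRAB_CR4 among the lentiviral groups. It was at 230, 285 and 296 CPM there in libraries 1, 2 and 3. The other lentiviral groups were at 257 to 318, 290 to 350 and 336 to 352. For H2BC12 no group was lowest in every number. H1-2 passed in neither fit.

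At an unadjusted p under 0.05, members were more frequent in KRAB_CR10. Against KRAB_no_gRNA, KRAB_CR10 had 10 such members, all higher, where 1.49% of all tested genes reached that level, and KRAB_CR4 had 1 (1.71%). Against the matched dCas9 group KRAB_CR10 had 3 (0.496%) and KRAB_CR4 had 0 (0.999%), and the mean KRAB effect had 3 (1.26%). dCas9_CR4 and dCas9_CR10 against KRAB_no_gRNA had 0 each (0.448% and 1.19%), and KRAB_CR4 against KRAB_CR10 had 2 (0.897%). These comparisons share libraries, so their counts are not independent. Without the 2 libraries high in ribosomal RNA, KRAB_CR10 against KRAB_no_gRNA had 2 members at this level (1.15% of all tested genes) and the members' median log2 fold change went from 0.31 to 0.13.

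**Figure D3:**
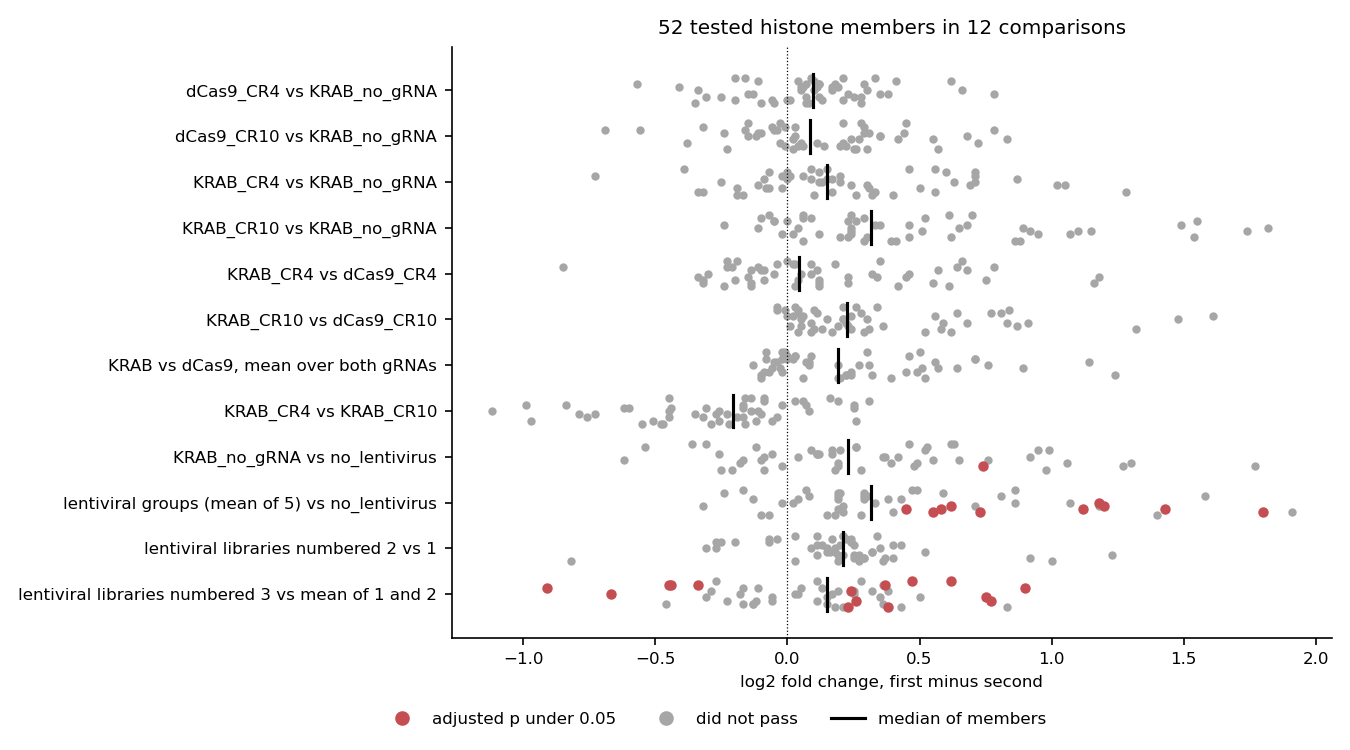
Log2 fold change of each of the 52 tested members (points) in 12 comparisons, with members past an adjusted p of 0.05 in red and the members' median as a black line. No member passes in the upper 8, the gRNA and repressor comparisons, while the medians run from -0.21 in KRAB_CR4 against KRAB_CR10 to 0.32 in lentiviral against untransduced libraries.

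In KRAB_CR10 against KRAB_no_gRNA the members with the smallest p were low ones. H4C5, an H4 gene, was at 5.13, 1.45 and 2.07 CPM in KRAB_CR10 and at 1.22, 0.76 and 0.461 in KRAB_no_gRNA, with a log2 fold change of 1.82 ± 0.58 (edgeR adjusted p = 0.999). H1-5, a linker histone, was at 2.64, 0.897 and 1.2 CPM against 0.406, 0.456 and 0.538, a log2 fold change of 1.74 ± 0.62, and H4C14 at 6.81, 5.18 and 6.22 against 2.6, 3.65 and 4.92, a log2 fold change of 0.70 ± 0.25 (edgeR adjusted p = 0.999 for each). These 3 members did not overlap between the groups, as was the case for 7 of 52 members in the upward direction and 4.13% of all tested genes. In KRAB_CR4 against KRAB_no_gRNA the smallest p values belonged to H4C14 (log2 fold change 0.56), H2AC14 (0.60) and H2BC11 (-0.32). Against the matched dCas9 groups they belonged to H4C11 (0.78), H2BC11 (-0.32) and H1-2 (-0.24) for CR4 and to H2AC12 (1.61), H4C5 (1.48) and H2AC8 (0.52) for CR10. In the mean KRAB effect they belonged to H2AC12 (1.14), H4C11 (0.71) and H4C2 (1.24).

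For dCas9 without KRAB against KRAB_no_gRNA the smallest p values were those of H2BC21 (0.33), H4C11 (-0.57) and H2BC6 (0.38) with CR4 and of H4C14 (0.45), H4C11 (-0.69) and H2BC17 (0.44) with CR10, all on the log2 scale. Between the gRNAs with KRAB, H2BC11 was at 10.5, 16.1 and 10.9 CPM in KRAB_CR4 and at 20.1, 17.1 and 16.3 in KRAB_CR10. These values did not overlap, with a log2 difference of -0.51 ± 0.18 and an edgeR adjusted p = 1.0. H2BC17 (-0.60) and H4C5 (-1.12) followed. The difference of the KRAB effects between the gRNAs was called for 0 members (0.0% of all genes) by edgeR and by DESeq2, and no member had an unadjusted p under 0.05 (0.347% of all genes). An adjusted p above the threshold does not show that levels were equal: the SE of these log2 differences ran to 0.62 among the members named here.

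In both libraries high in ribosomal RNA, most histone members were high, and those above every other library were all of low level. Of 52 tested members, 38 were highest of their group in KRAB_CR4 library 2 and also in KRAB_CR10 library 1, where 13.3% of all tested genes were, and 17 lay above all other 16 libraries in both, where 0.754% of all tested genes did. H1-4 was at 7.96 CPM in the former and 13.9 in the latter, against 0.806 to 5.3 (median 3.54) in the other 16. H4C5 was at 2.57 and 5.13 against 0.461 to 2.07 (median 0.832), H3C2 at 4.6 and 5.45 against 0.793 to 3.03 (median 2.01), and H1-5 at 1.59 and 2.64 against 0.062 to 1.2 (median 0.705). All 4 were above every other library in both. H2BC12, at 437 and 396 CPM against 308 to 492, and H1-2, at 285 and 318 against 230 to 352, lay inside the range of the other 16.

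Ratios within each group overlapped between abundant and low members but had different medians. Relative to the mean of the other 2 libraries of its group, the 10 highest members were at 0.977 to 1.53 times (median 1.18) in KRAB_CR4 library 2 and 0.881 to 1.41 times (median 1.04) in KRAB_CR10 library 1. The other 42 tested members were at 0.66 to 5.68 times (median 1.62) and 0.67 to 3.52 times (median 1.65). Among the 10 highest, H2AC18 was at 1.44 and 1.35 times and H3C4 at 1.3 and 1.41 times, so some abundant members were high too. The most abundant ones were near or below 1. H2BC12 was at 1.1 and 0.91 times, H1-2 at 1.09 and 1.01 times and H2BC21 at 0.977 and 0.881 times. H2AC15, a low member, was below the others of its group in both, at 0.66 and 0.67 times. The 17 members above all others ranked from 15 (H2AC11) to 52 (H4C1) by mean CPM, so none was among the 10 highest. RN7SK, a transcript of RNA polymerase III without a poly(A) tail, was at 43.5 and 47.2 CPM in these libraries and at 1.46 to 12.1 in the other 16. These libraries were picked for their ribosomal RNA after the data were seen, and the part of such RNA in the histone values was not tested.

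**Figure D4:**
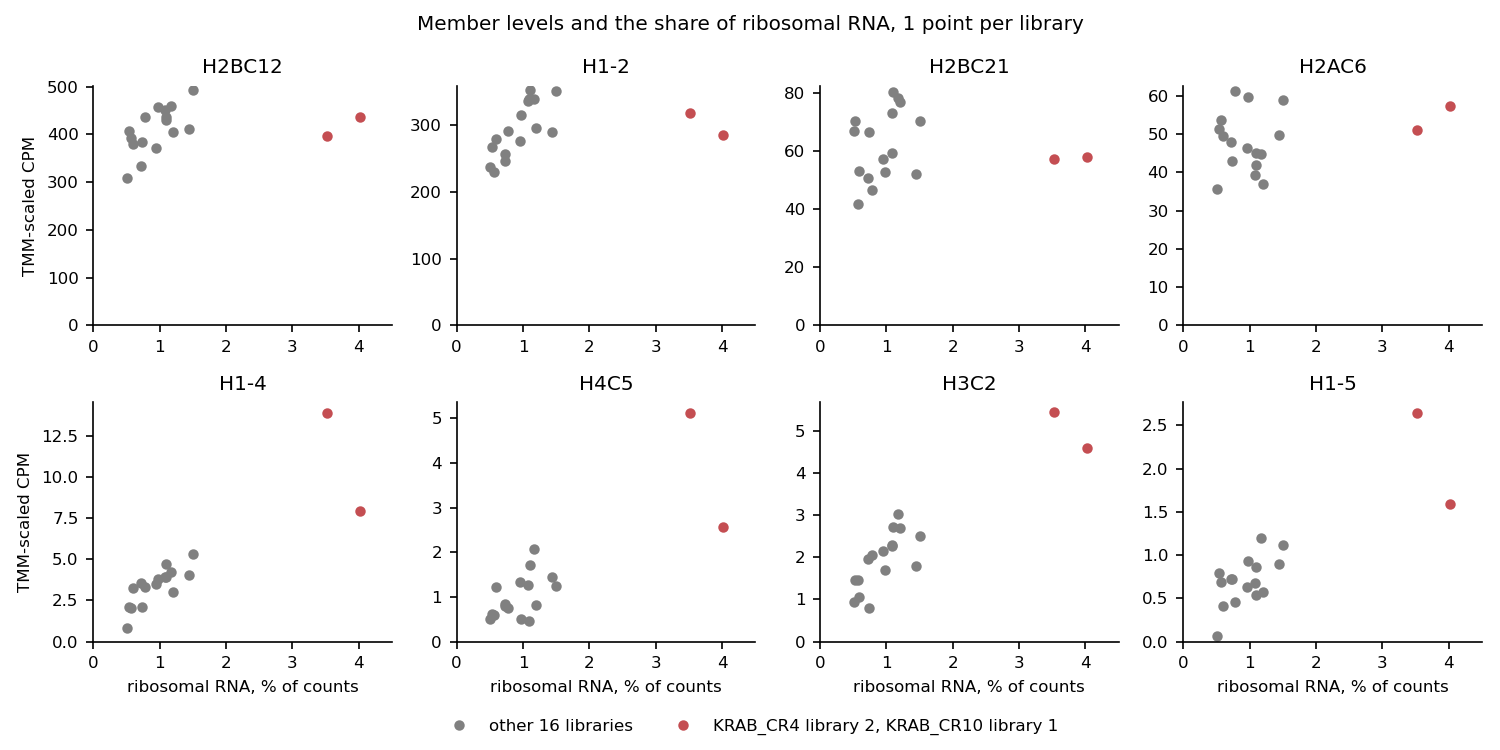
TMM-scaled CPM of 8 members (vertical axes from 0) against the share of ribosomal RNA in the counts (%), 1 point per library, with KRAB_CR4 library 2 (4.02%) and KRAB_CR10 library 1 (3.52%) in red. The upper 4 genes, the highest members, lie inside the range of the other 16 libraries, and the lower 4 lie above it.

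Library number separated members in both directions. In the 15 lentiviral libraries, with group as a term, 10 of 52 members were higher in the libraries numbered 3 than in the mean of those numbered 1 and 2, where edgeR called 27.9% of 14602 tested genes higher, and 5 were lower (25.9%). The 28.8% of members called in either direction lies below the 53.8% of all tested genes, and the members' median level was lower than that of all tested genes, as given above. Whether level sets this share was not tested. At an unadjusted p under 0.05 there were 16 members (59.3% of all tested genes). The libraries numbered 3 did not overlap the others for 1 member upward (9.12% of all tested genes) and 2 downward (11.7%). What the number stands for is not given in the labels.

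H3C4, an H3 gene, had the smallest adjusted p. It was at 9.98, 9.49, 8.56, 7.67 and 8.38 CPM in the libraries numbered 3 of KRAB_no_gRNA, dCas9_CR4, KRAB_CR4, dCas9_CR10 and KRAB_CR10, and at 11.7 to 17.4 (median 14.4) in the other 10. The sets did not overlap, and the log2 fold change was -0.67 ± 0.09 (edgeR adjusted p = 2.15e-06). H2AC6, an H2A gene, did not overlap either, at 45.2, 39.4, 37.1, 41.9 and 44.8 CPM against 46.5 to 61.3 (median 52.4), a log2 fold change of -0.34 ± 0.07 (edgeR adjusted p = 0.000378). The other members that fell were H2BC9 (-0.91), H2AC14 (-0.45) and the transcribed pseudogene H2BC20P (-0.44), all of which overlapped.

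H4C9, an H4 gene, was highest in the libraries numbered 3 of all 5 groups, at 2.92, 3.02, 3.34, 3.01 and 2.47 CPM against 1.04 to 2.24 (median 1.56) in the others. The sets did not overlap, with a log2 fold change of 0.90 ± 0.18 (edgeR adjusted p = 0.000352). H2BC21 (HIST2H2BE), an H2B gene on chromosome 1 with a long polyadenylated transcript model, was at 59.3, 73.0, 76.8, 80.5 and 78.2 CPM against 41.7 to 70.3 (median 53.1), also highest within each of the 5 groups. Its log2 fold change was 0.47 ± 0.08 (edgeR adjusted p = 5.56e-05). H3C10 was at 18.7 to 23.4 CPM against 12.6 to 20.4 (0.37 ± 0.09, edgeR adjusted p = 0.00172), and H1-2 at 296 to 352 against 230 to 350 (0.23 ± 0.06, edgeR adjusted p = 0.00368), each highest within 4 of 5 groups. The other 6 that rose were H4C3 (0.77), H2BC13 (0.75), H2AC15 (0.62), H4C15 (0.38), H2BC5 (0.26) and H2BC8 (0.24), of which H2AC15 and H2BC8, like H2BC9 among the fallers, did not pass in DESeq2, which called 13 members, H3C6 added.

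**Figure D5:**
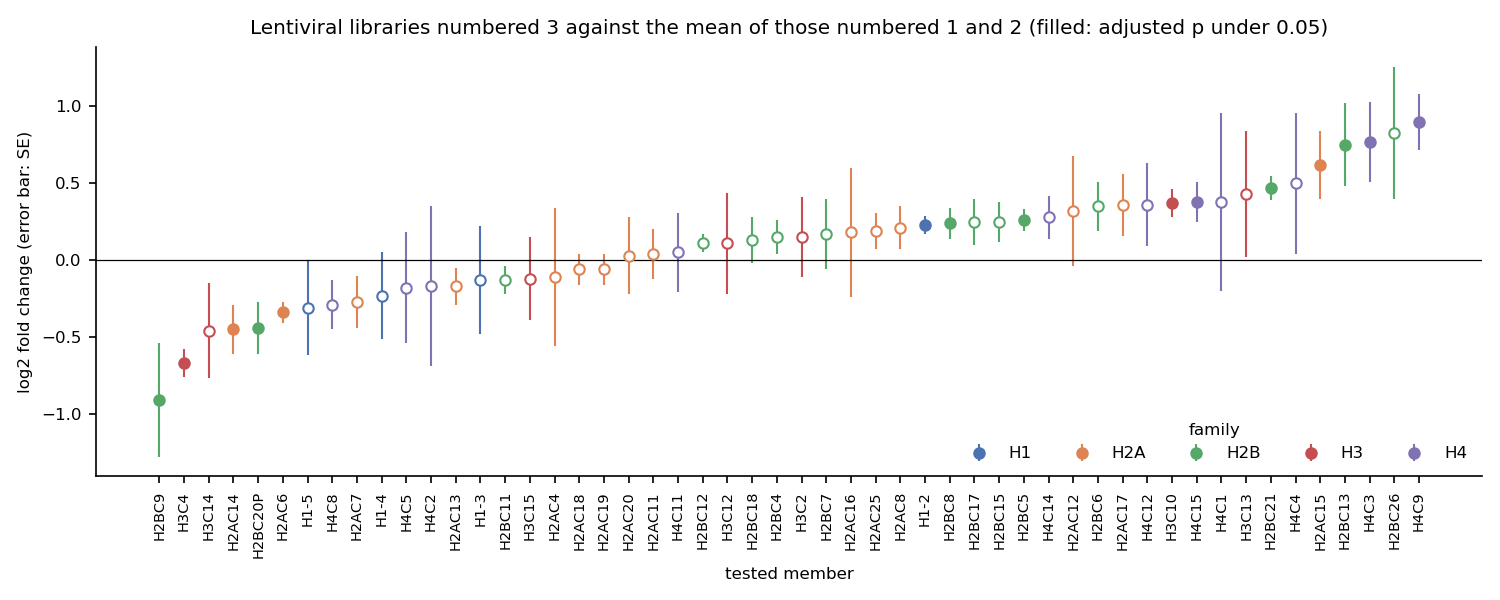
Log2 fold change (points) with its SE (bars) of the 52 tested members between lentiviral libraries numbered 3 and the mean of those numbered 1 and 2, in order of size and coloured by family; filled points passed at an adjusted p under 0.05. The 15 that passed run from -0.91 (H2BC9) to 0.90 (H4C9), and H3C4 combines a fall of 0.67 with an SE of 0.09.

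Members of 1 family went apart. H2B genes gave 4 rises and 2 falls, H2A genes 1 rise and 2 falls, H3 genes 1 of each, H4 genes 3 rises and no fall, and H1 genes 1 rise. Without KRAB_CR4 library 2 and KRAB_CR10 library 1, 17 members were higher and 2 lower, where that fit called 26.9% of all tested genes higher and 25% lower, and 11 of the 15 were among them. Between libraries numbered 2 and 1, edgeR called 0 members (0.178% of all tested genes higher, 0.877% lower and 1.05% in all), 13 members had an unadjusted p under 0.05, all higher (20% of all tested genes in either direction), and DESeq2 called 1. H2BC12 was nearest, at 374 ± 24.9 CPM in the libraries numbered 1 and 447 ± 30.4 in those numbered 2 (SD, n = 5), a log2 fold change of 0.27 ± 0.07 (edgeR adjusted p = 0.0521), with no overlap. H4C3 (1.23 ± 0.32, edgeR adjusted p = 0.0572) and H2BC5 (0.25 ± 0.09, edgeR adjusted p = 0.124) came next.

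Most S phase genes were lower in the libraries numbered 3. The counts of the lists are to be read against the 27.9% of all tested genes called higher and the 25.9% called lower. Of 30, which include SLBP, 20 were lower and 4 higher. Among them were PCNA, the sliding clamp of DNA polymerases (-0.41), UNG (-0.45) and MCM6 (-0.33), with RFC4 (0.34) among the risers. Of 34 genes that control histone mRNA, 17 were lower and 4 higher. SLBP itself fell (134 ± 9.53 against 172 ± 12.1 CPM, log2 fold change -0.34, edgeR adjusted p = 5.16e-05), as did ZNF473, a subunit that joins the U7 particle to SLBP (-0.87), UPF1, which takes part in the decay of histone mRNA (-0.73), and CCNE2, a cyclin of the G1 to S transition (-0.72). Of 24 histone chaperones 10 were lower, HIRA (-0.53), IPO4 (-0.53) and UBN1 (-0.53) among them, and 3 higher. Of 9 tested replication-independent histone genes 4 were lower, H2AX the most (-0.63), and CENPA was higher (0.23).

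The remaining lists were mixed, set against the same 27.9% of all tested genes higher and 25.9% lower. G2 and M phase genes gave 6 higher and 4 lower of 19, RNAs without poly(A) 2 higher of 12 (RNU2-1 and TERC), housekeeping genes 2 higher and 1 lower of 8, and erythroid genes 8 lower and none higher of 12. All 5 tested myeloid and lymphoid genes were higher, SPI1 (1.13) and LYZ (0.95) among them, as were 2 of 5 megakaryocyte genes and 1 of 6 fibroblast and epithelial genes. Between libraries numbered 2 and 1, TRRAP (-0.40), CENPF (-0.35) and MKI67 (-0.52) were lower, as were 0.877% of all tested genes. No other gene of these lists passed. The part of these lists in the histone differences was not tested.

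Neighbouring members that share a promoter region were looked at as pairs. Among RefSeq promoters, 12 pairs of members on opposite strands had overlapping promoter windows, 11 of them an H2A and an H2B gene, and 10 of the 12 had both genes tested. Between lentiviral and untransduced libraries, 3 of these 10 pairs had 1 gene that passed and 0 had both. As 19.2% of all tested members were called, few pairs with both would arise in any case, so the 0 is a description only. The pairs are also not independent, as H2BC7 is paired with both H3C4 and H2AC7. The RefSeq span of H3C4 (2510 bases) ends at the same base as that of H2AC7. These 2 genes therefore have the same promoter window, and H3C4 has none of its own here. H2BC11 was at 15.6 ± 2.71 and 9.33 ± 0.362 CPM in the lentiviral and untransduced libraries (SD, n = 15 and n = 3), while its partner H2AC11 was at 5.65 ± 1.29 and 5.56 ± 0.36. H2BC4 passed, and its partner H2AC6 was at 49.6 ± 7.45 and 43.3 ± 7.85 CPM. H2AC20 was at 1.54 ± 0.554 and 0.669 ± 0.116 CPM, and its partner H2BC21 at 60.5 ± 12.2 and 68.0 ± 2.02. The difference between the partners was not tested.

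In the libraries numbered 3, 6 of the 10 pairs had 1 gene that passed and 0 had both. Here 28.8% of all tested members were called, so few pairs with both would arise in any case. H2AC6 fell while H2BC4 was at 10.9 ± 1.03 CPM in these libraries and 10.0 ± 2.0 in the others (SD, n = 5 and n = 10). H3C4, paired through the window it has in common with H2AC7, fell while H2BC7 was at 1.43 ± 0.394 and 1.32 ± 0.508 CPM. H2BC21 rose while H2AC20 was at 1.52 ± 0.0746 and 1.55 ± 0.688 CPM. The library preparation does not mark the strand, so reads where facing genes overlap cannot be assigned to 1 of them.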

How the data were processed

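RNA of K562 cells was selected on oligo-dT beads and made into 18 libraries with a transposase, per the labels' protocols. The authors deposited raw read counts per RefSeq transcript accession. All were even, so each fragment appears as 2 counts. Per the submitters' processing notes, the tools were Bowtie2, Picard, SAMtools and DESeq in R 3.1.2, and the build was hg19; the counting tool and its annotation are not given in the sources used here. Accessions (40709) were summed per gene, and 97.89% of them, with 99.03% of counts, had a symbol. Genes were tested with edgeR 4.0.16 in R 4.3.3 (filterByExpr, TMM, quasi-likelihood test, Benjamini-Hochberg over all tested genes, threshold 0.05), with 6 group means over 18 libraries. The library number was tested in the 15 lentiviral libraries with group as a term. CPM are TMM-scaled, and precision at low levels is set by library totals of 22805964 to 34032962 counts. DESeq2 1.42.0, other filters and scalings, halved counts, fewer groups, the replicate block and left-out libraries were alternatives. The fits were tested on simulated data.

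The members and the lists (histone mRNA control, histone chaperones, replication-independent histones, S phase, G2 and M phase, RNAs without poly(A), housekeeping, erythroid, megakaryocyte, myeloid and lymphoid, fibroblast and epithelial) were chosen with earlier results of these data known. Named with values are up to 10 passing members per direction and comparison by fold change, or the 3 with the smallest p where none passed, the 10 highest members, the highest of each family per coding length, members with several transcripts or an identical copy, and up to 4 passing genes per list; members described in the libraries high in ribosomal RNA and in facing pairs were chosen after their values were seen. Coding lengths are from GENCODE 29 and promoters from RefSeq GRCh38.p14; no coordinate of hg19 was used. Same-numbered lentiviral libraries deviated together (30 of 30 pairs correlated above 0.1, from 0.16 to 0.86, over 12607 genes), and 18 of 60 pairs with different numbers did. Among pairs with an untransduced library 5 of 15 did, so only the lentiviral libraries were taken as paired by number. Some genes of the marker and housekeeping lists are not reported here.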

Additional observations from a re-analysis of the deposited data

How the results depend on the processing

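No direction of a named member reversed. In the 8 gRNA and repressor comparisons 0 members passed under every alternative run, with 0 to 0 when 1 library was left out. A replicate block in a fit of the 15 lentiviral libraries also gave 0 in all 8, and at an unadjusted p under 0.05 KRAB_CR10 against KRAB_no_gRNA had 14 members in that fit, as did 1504 of all 14602 tested genes. With the replicate block on all 18 libraries 12 members passed between lentiviral and untransduced libraries (H1-2 and H2BC7 added; 11.8% of all tested genes rose in that fit) and 1 between KRAB_no_gRNA and no_lentivirus; the block changed no other call of a named member.

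Between KRAB_no_gRNA and no_lentivirus, 3 members passed with DESeq2, 0 with only the groups compared and 0 without the libraries numbered 3, and 0 to 2 with 1 library left out. Between lentiviral and untransduced libraries 3 passed without the libraries numbered 3, and 1 to 10 with 1 library left out. For libraries numbered 3 the range was 10 to 16. Between numbers 2 and 1, DESeq2 called 1 member, no filter 3, a mean of at least 50 counts 1, halved counts 1 and leaving out KRAB_CR4 library 2 and KRAB_CR10 library 1 gave 4, with 0 to 5 when 1 library was left out (5 without KRAB_CR10 library 1). The shares of all tested genes in these fits were not worked out, and the cause of these differences was not tested. A filter on a mean of at least 50 counts removed low members, which then have no value. Leaving out these 2 libraries, an alternative chosen after seeing the data, also moved the members' median log2 fold change in KRAB_CR4 against KRAB_no_gRNA from 0.15 to -0.06.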

Other observations

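The 5 non-member genes whose log2 CPM was most like that of the summed members over the 15 lentiviral libraries, among 10383 genes with a mean of at least 5 CPM, were RPS10-NUDT3 (Pearson r 0.89, Spearman rho 0.74), RPL28 (0.89 and 0.75), SNRPD2 (0.88 and 0.83), PTMS (0.88 and 0.76) and RPS16 (0.88 and 0.77). The median r over all these genes was -0.12. The libraries share groups and numbers, so these values are a description.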
